A study of Bos taurus and other sequences with 9 samples.

Results

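Histidine tRNA (tRNA-His) was examined in 9 small ncRNA libraries of culture media. The loci were taken as all entries of the deposited small ncRNA table with the type tRNA and with His after the hyphen of the name, which gave 11 of the 530 tRNA loci and of the 1361 loci in the table. All of them carry the anticodon GTG, and 10 of the 11 had counts in each of the 9 samples. Loci were chosen by name, and the family was selected on its spike-in normalized levels in these 9 samples, which were known. The levels are therefore given as a description, and calls from fits stand beside their background.

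Libraries were made from RNA isolated from 5 media with a kit for extracellular vesicles (EVs). The paper did not show that this RNA was bound to EVs and considers a mix with non-vesicular RNA more likely. FBS was medium with untreated fetal bovine serum, from Sigma in FBS-1 and from Gibco in FBS-2. Suppliers are as the labels give them, but the study's methods list both sera under the same catalogue number with different lots, so that a difference of supplier cannot be told apart from one of lots, and Sigma and Gibco serve here as names of the sera. UC-dFBS and UF-dFBS were media with the same 2 sera after EV depletion, by ultracentrifugation and recovery of the upper supernatant or by passage through a centrifugal ultrafilter and recovery of the flow-through. SBI-dFBS was medium with commercial exosome-depleted serum from System Biosciences, in 2 lots with no untreated counterpart here. These 8 samples shared the basal medium DMEM/F12 and antibiotics. StemPRO was a defined serum-free and xeno-free medium for mesenchymal stem cells, with 1 sample and thus no replicate. As the 2 samples of a medium differ in serum or lot, every SD between them also holds that difference, and each sample of a serum is a single preparation.

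tRNAs bring amino acids to the ribosome, and tRNA-His is unusual among them in carrying an additional guanosine at its 5′ end, which a dedicated enzyme adds after transcription. In cells under stress, ribonucleases such as angiogenin cut mature tRNAs in the anticodon loop and leave a 5′ and a 3′ fragment. Such fragments, those of tRNA-His and tRNA-Gly among them, are known constituents of blood serum and of EVs. The deposited counts give no read lengths. The paper calls its tRNA reads fragments and kept only reads in which the adapter was found. The tRNA-His levels given here are counts of such reads.

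The 11 loci are human ones, named and placed on GRCh37 by the authors, each 72 bases long, whereas the serum is bovine. On chromosome 1 there are 5 of them, namely tRNA118-HisGTG (145396881 to 145396952, minus strand), tRNA16-HisGTG (146544773 to 146544844, plus strand), tRNA21-HisGTG (147753471 to 147753542, plus strand), tRNA111-HisGTG (147774845 to 147774916, minus strand) and tRNA106-HisGTG (149155828 to 149155899, minus strand). tRNA21-HisGTG and tRNA111-HisGTG lie 21302 bases apart. Chromosome 15 has 3 loci within 2617 bases, which are tRNA9-HisGTG (45490804 to 45490875, minus strand), tRNA8-HisGTG (45492611 to 45492682, minus strand) and tRNA1-HisGTG (45493349 to 45493420, plus strand). The others are tRNA33-HisGTG on chromosome 6 (27125906 to 27125977, plus strand), tRNA7-HisGTG on chromosome 9 (14433938 to 14434009, minus strand) and tRNA4-HisGTG on chromosome 3 (148316563 to 148316634, minus strand). The bovine RefSeq annotation (assembly ARS-UCD2.0) lists 32 genes named TRNAH-GUG, 11 of them on 1 chromosome. A count at a human locus therefore does not name the bovine gene that the RNA came from, and locus sequences were not analysed here.

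Total counts on all small ncRNAs ranged from 82513 in UF-dFBS-2 to 6867736 in UF-dFBS-1 among the FBS-based samples, and StemPRO had 6679. Serum markers fixed for a check of the source were present, with hsa-miR-122-5p, a liver miRNA, at 19403 spike-in normalized counts for FBS-1 and 4817 for FBS-2. Of the 9 listed miRNAs of liver, red cells, platelets, white cells and vessels, none was at 0 in FBS or SBI-dFBS, whereas UC-dFBS-2 had 1 at 0, UF-dFBS-1 had 2, UF-dFBS-2 had 3 and StemPRO had 1. A spike-in normalized count is a count divided by a factor of its sample, which the authors derived from RNA spike-ins added in known amounts.

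Summed over the 11 loci, tRNA-His amounted to 498743 spike-in normalized counts for FBS-1 and 4187 for FBS-2. The SBI-dFBS lots had 189591 (sample 1) and 900734 (sample 2), ultracentrifuged serum had 319966 (UC-dFBS-1) and 32890 (UC-dFBS-2). Totals after ultrafiltration were 26144 (UF-dFBS-1) and 377.4 (UF-dFBS-2), and StemPRO had 0.555. The highest FBS-based sample was thus 2386 times the lowest, and both lay in depleted media. In each medium prepared from both sera, the Gibco-based sample was the lower one.

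**Figure D1:**
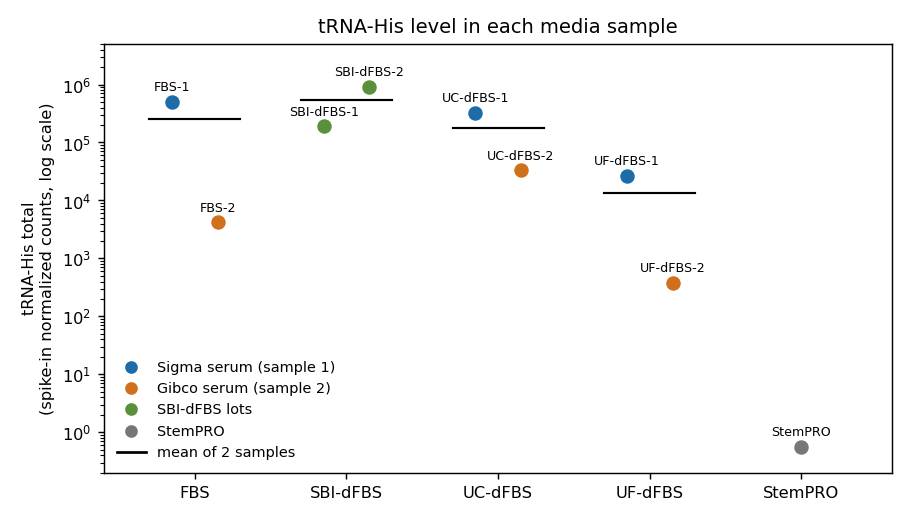
Summed tRNA-His level of each media sample, in spike-in normalized counts on a log axis, by medium. Points are single samples, coloured by serum or lot, and horizontal lines are means of 2 samples. FBS-1 (498743) and FBS-2 (4187) stand further apart than the means of FBS and UC-dFBS, and StemPRO is lowest at 0.555.

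In descending order, the samples were SBI-dFBS-2, FBS-1, UC-dFBS-1, SBI-dFBS-1, UC-dFBS-2, UF-dFBS-1, FBS-2, UF-dFBS-2 and StemPRO. Neighbours at the top of that order were close, with 1.81 times between SBI-dFBS-2 and FBS-1, 1.56 times between FBS-1 and UC-dFBS-1 and 1.69 times between UC-dFBS-1 and SBI-dFBS-1. UC-dFBS-2 was 1.26 times UF-dFBS-1. Each of these steps was smaller than the smallest difference between the 2 samples of a medium, which was 4.75 times in SBI-dFBS. Untreated FBS-2 therefore had less tRNA-His than 6 of the other samples, ultrafiltered UF-dFBS-1 included.

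As means, FBS had 251465 ± 349704 spike-in normalized counts of tRNA-His (SD, n = 2). The mean of SBI-dFBS was 2.17 ± 3.62 times this value, that of UC-dFBS 0.702 ± 1.27 times and that of UF-dFBS 0.0527 ± 0.103 times (SD, propagated from both media). Single samples decided these ratios. Against FBS-2 alone they were 130.2, 42.1 and 3.17, so that the direction turned for UC-dFBS and UF-dFBS. It also turned for SBI-dFBS without SBI-dFBS-2 (0.754) and for UC-dFBS without UC-dFBS-2 (1.27).

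Across the 363 loci of small ncRNA other than miRNA that reached 10 counts in 2 or more samples, edgeR's quasi-likelihood test called 0 loci for SBI-dFBS, UC-dFBS or UF-dFBS against FBS, a background of 0%. At an unadjusted p under 0.05 there were 4, 12 and 108 loci in these contrasts, and DESeq2 with the spike-in factors called 0, 0 and 135. Of the 11 tRNA-His loci, 10 passed this filter and 0 of them were called or had an unadjusted p under 0.05. Their fitted log2 differences from FBS lay between 1.11 and 1.17 for SBI-dFBS, between -0.56 and -0.48 for UC-dFBS and between -4.29 and -4.15 for UF-dFBS, where the medians of all loci tested were 1.11, -0.87 and -3.63. The median of tRNA-His for UC-dFBS, -0.52, turned to 0.96 with TMM and to 0.88 with the size factors of DESeq2, and that for UF-dFBS, -4.24, was -1.40 and -0.78. The standard error of tRNA7-HisGTG was 2.91, 2.88 and 3.29 in the same contrasts. Of the tRNA-His loci, DESeq2 called 0 in the 3 contrasts, although for UF-dFBS all 10 had an unadjusted p under 0.05, with adjusted p-values from 0.0879 to 0.0934.

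With the serum as block in the 6 samples of both sera, edgeR called 1 of 10 tRNA-His loci in UF-dFBS against FBS, with 66.1% of all 322 loci tested called lower. This was tRNA106-HisGTG, the least abundant of the 10, at an adjusted p of 0.0485. The block also turned the direction in UC-dFBS, from a median log2 difference of -0.52 to 1.39, with 0 of 10 tRNA-His loci and 2.48% of all 322 loci called.

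Sigma and Gibco sera differed in tRNA-His in every preparation. The total was 119 times higher in FBS-1 than in FBS-2, 9.73 times higher in UC-dFBS-1 than in UC-dFBS-2 and 69.3 times higher in UF-dFBS-1 than in UF-dFBS-2. Other tRNA was lower in the Gibco serum as well. The Gibco to Sigma ratio of tRNA without tRNA-His was 0.208 in FBS, 0.453 in UC-dFBS and 0.0304 in UF-dFBS, where that of tRNA-His was 0.0144. Levels of tRNA-His in both sera overlapped all the same when the preparations were pooled, because UC-dFBS-2 was above UF-dFBS-1. Shares of tRNA counts do not rest on the spike-ins, although they also depend on the other tRNAs, and had the same order within each preparation. Of the tRNA counts of a sample, tRNA-His held 63.7% in FBS-1 against 6.61% in FBS-2. After ultracentrifugation it held 60.1% in the Sigma and 25.5% in the Gibco serum, and after ultrafiltration 21.1% and 11.3%. The widest Wilson 95% confidence interval among these shares was 11.1 to 11.5% in UF-dFBS-2, the interval covering counting error only.

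In the fit of supplier and medium over these 6 samples, 10 of 10 tRNA-His loci were called lower in the Gibco serum (edgeR's quasi-likelihood test, adjusted p from 0.00471 to 0.0345). The background is high, as 62.1% of the 280 loci tested were called lower and 0 were called higher. Log2 changes of the tRNA-His loci lay between -5.54 and -5.40, with a median of -5.52 against -3.13 for all loci. Of the other loci, 49 were lower than every tRNA-His locus, and the medians of tRNA-Ser (-6.21, 16 of 17 called lower) and tRNA-Val (-6.14, 27 of 27) were below that of tRNA-His. tRNA7-HisGTG changed by -5.53 ± 2.30 (SE) and tRNA106-HisGTG by -5.40 ± 1.64 on the log2 scale. Reads may fit several of these loci, so that they are not 10 independent observations. The samples on each side are preparations of a single serum, so the p-values do not cover the spread between sera. The calls depended on scaling and on single libraries. With TMM factors, which moved the median of all loci to 0.58, 0 of 10 were called, with 6.79% of all loci called lower, and 65 of the 84 called loci were then higher in Gibco. Leaving out FBS-1 or FBS-2 left 0 called, with 5.21% and 28.8% of all loci called lower. Leaving out UF-dFBS-1 or UF-dFBS-2 left 1, below the 56.2% and 66.8% of all loci, and with no filter on low counts 1 was called, beside 15.2% of all loci. DESeq2 called 10 of 10 both with the spike-in factors (80% of all loci called lower) and with its own (31.8%), where 58 of 147 called loci were higher in Gibco. Relative to the median of all loci, the median of tRNA-His lay at -2.39 on the log2 scale with spike-in factors, at -2.10 with TMM and at -2.12 with the size factors of DESeq2. A change of scaling moves all loci by nearly the same amount, so that this difference could hardly change with it. It did change with the samples and loci used, from -3.02 without UF-dFBS-1 to -1.23 without FBS-2, and to -4.08 with no filter on low counts.

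**Figure D2:**
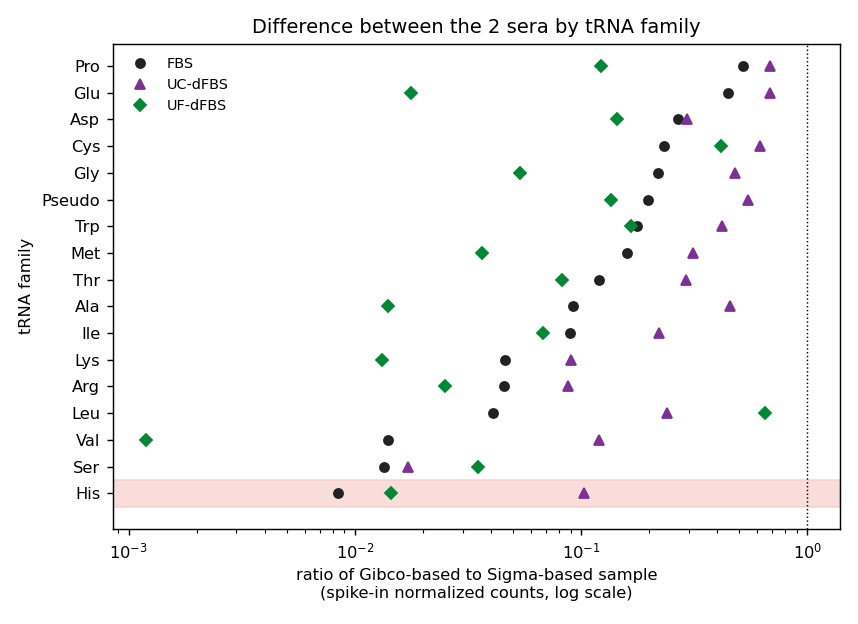
Ratio of the Gibco-based to the Sigma-based sample for 17 tRNA families, on a log axis of spike-in normalized counts, with 1 point for each preparation. Families are ordered by the ratio in FBS, and tRNA-His, at 0.00840, has the lowest, while its points for UC-dFBS (0.103) and UF-dFBS (0.0144) are the fourth lowest of 17.

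The tRNA families chosen for comparison differed less between the untreated sera. tRNA-Gly, the second most abundant family of FBS-1, was 4.55 times higher in FBS-1 than in FBS-2, and tRNA-Glu was 2.25 times higher. tRNA-Asp differed 3.72-fold and tRNA-Lys 21.8-fold. tRNA-Val was nearer to tRNA-His with 71.0 times, and in UF-dFBS its difference of 838 times was larger. Outside this list, the rarer tRNA-Ser differed 74.5-fold between the untreated sera. By anticodon, tRNA-SerAGA differed more than tRNA-His between the untreated sera, by 126 times. These ratios compare single samples and were not tested against each other. The 9 source markers were lower in FBS-2 in 8 of 9 cases, with sums of 24847 in FBS-1 and 7330 in FBS-2, a ratio of 0.295 where that of tRNA-His was 0.00840. Most of both sums was hsa-miR-122-5p, with a ratio of 0.248. The ratios of the other markers ran from 0.293 to 0.676, except for hsa-miR-486-5p, which was higher in FBS-2 at 1.88. Total miRNA of FBS-2 was 0.397 times that of FBS-1, and tRNA without tRNA-His was 0.208 times. Total counts were 4003607 for FBS-1 and 603780 for FBS-2. The part of the serum's sources and of depth in the difference was not tested.

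Within FBS-1, tRNA-His was the most abundant of 30 anticodon families, at 3.14 times the counts of tRNA-GlyCCC. In FBS-2 tRNA-GlyCCC had 8.44 times the counts of tRNA-His, which also came after tRNA-GluTTC. tRNA-His was first in both SBI-dFBS lots and UC-dFBS-1 as well, and followed tRNA-GlyCCC as the next family in UC-dFBS-2 and both samples of UF-dFBS. By amino acid, tRNA-Val, which is split by anticodon here, held 27.7% of tRNA counts in UF-dFBS-1 against 21.1% for tRNA-His. In the SBI-dFBS lots tRNA-His took 39.9% and 57.7% of tRNA counts. SBI-dFBS-2 had 4.75 times the tRNA-His of SBI-dFBS-1, and all 10 loci were more than 2-fold higher in it, as were 62.3% of the loci with at least 10 counts in either lot.

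**Figure D3:**
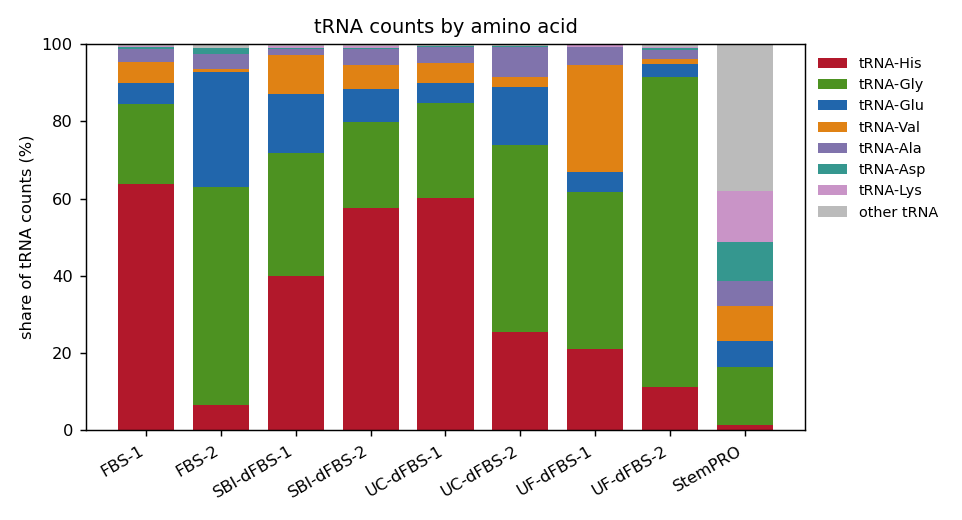
Share of the tRNA counts of each sample by amino acid, in percent, as stacked bars from 0 to 100. tRNA-His, at the base of each bar, takes 63.7% in FBS-1 and 6.61% in FBS-2, where tRNA-Gly takes 56.5%, and it takes 1.31% in StemPRO.

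Ultracentrifugation left tRNA-His at different levels in the 2 sera. UC-dFBS-1 had 0.642 times the tRNA-His of FBS-1, whereas UC-dFBS-2 had 7.86 times that of FBS-2. In the Gibco serum all 10 loci were more than 2-fold higher after ultracentrifugation, between 6.71 and 8.09 times, as were 24.6% of the loci with at least 10 counts in either sample. In the Sigma serum all 10 lay between 0.626 and 0.654 times, so that 0 of them passed 2-fold in either direction, while 54.3% of the loci with at least 10 counts in either sample were more than 2-fold lower. Other RNAs of the same libraries differed. Total miRNA was 0.185 times FBS for the Sigma and 0.231 times for the Gibco serum, and the 9 source markers were lower than in FBS in 9 of 9 cases in both. tRNA without tRNA-His was 0.747 and 1.63 times FBS in the same order. As a ratio between RNAs of 1 library does not depend on the spike-ins, the higher ratio of tRNA-His than of miRNA in UC-dFBS-2 holds on counts too.

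Of 17 tRNA families, 17 were lower in UC-dFBS-1 than in FBS-1 and 11 were higher in UC-dFBS-2 than in FBS-2. tRNA-His had the highest ratio in the Gibco serum and the widest difference between the sera, a 12.2-fold difference of the ratios. By anticodon, tRNA-LeuAAG had a wider one, of 25.6-fold, with UC-dFBS-2 at 0.894 times FBS-2. tRNA-Val followed with 8.54-fold, at 5.51 times FBS in UC-dFBS-2. tRNA-Gly was at 1.75 times, tRNA-Glu at 1.04 times and tRNA-Asp at 0.369 times FBS-2. With 1 sample for each serum and preparation, these differences have no replicate check.

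**Figure D4:**
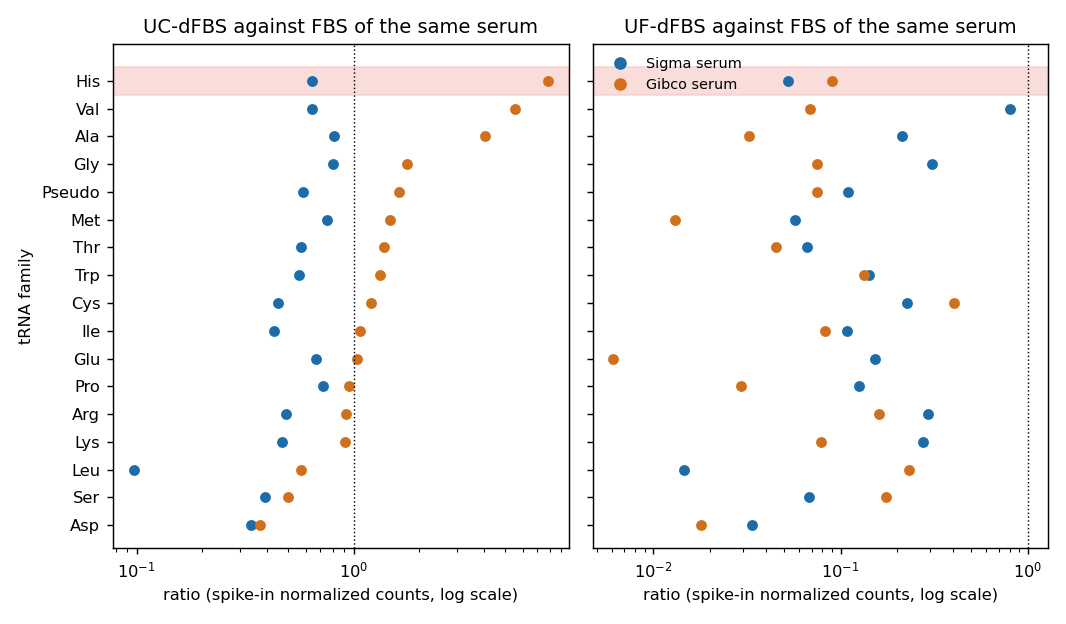
Ratio of UC-dFBS (left) and UF-dFBS (right) to FBS of the same serum for 17 tRNA families, on log axes of spike-in normalized counts, with 1 point for each serum. For tRNA-His the points of UC-dFBS lie on both sides of 1, at 0.642 and 7.86, and those of UF-dFBS lie at 0.0524 and 0.0901.

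After ultrafiltration tRNA-His was lower than in FBS of the same serum in both cases. The Sigma serum had 0.0524 times and the Gibco serum 0.0901 times the level of FBS, which is 94.8% and 91.0% lower. The size rests on the spike-in factors, as the ratios of raw counts were 0.598 and 0.290. All 10 loci were more than 2-fold lower in either serum, as were 78.7% of the loci with at least 10 counts in either sample in the Sigma serum and 93.2% in the Gibco serum. Total miRNA was at 0.00181 times FBS in the Sigma and 0.00234 times in the Gibco serum, below the ratio of tRNA-His in both.

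Compared with the other tRNAs, tRNA-His stood on different sides in the 2 sera. In UF-dFBS-1 tRNA without tRNA-His was at 0.343 times FBS-1, above tRNA-His, and tRNA-Val was at 0.807 and tRNA-Gly at 0.308 times. In UF-dFBS-2 tRNA without tRNA-His was at 0.0502 times FBS-2, below tRNA-His, and tRNA-Glu was at 0.00611 and tRNA-Val at 0.0683 times. The share of tRNA-His among tRNA counts was accordingly lower than in FBS in the Sigma serum (21.1% against 63.7%) and higher in the Gibco serum (11.3% against 6.61%). Set against ultracentrifugation of the same serum, UF-dFBS-1 had 12.2 times less tRNA-His than UC-dFBS-1 and UF-dFBS-2 had 87.1 times less than UC-dFBS-2.

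The serum-free StemPRO contained 60 counts of tRNA-His (exact Poisson 95% interval 45.8 to 77.2, for counting error only). They made up 1.31% of its 4590 tRNA counts (Wilson 95% confidence interval 1.02 to 1.68%), below the share in every FBS-based sample. Among the 30 anticodon families tRNA-His was number 19 by level. By amino acid it was number 14 of 17 families, while tRNA-Gly held 15.2% and tRNA-Lys 13.1% of the tRNA counts. The families ranked had at least 10 counts in each of the 8 FBS-based samples, so that others present in StemPRO are left out. UF-dFBS-2, the lowest of the FBS-based samples, was 680 times higher. Of the 11 loci, 9 were above 3 counts, the floor that a count of 0 allows, which equals 0.0278 spike-in normalized counts in StemPRO. The counts of these 9 loci ran from 4 to 9, so that no order among them can be read.

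The loci fell into 3 levels. Reads may fit several loci, and how such reads were placed is not given, so that levels and order of single loci may depend on it. Together, 9 loci held between 9.48% and 13.4% each of all tRNA-His counts, tRNA106-HisGTG held 0.136% and tRNA4-HisGTG had 1 count, in SBI-dFBS-2. tRNA7-HisGTG was the most abundant, with 67093 and 605 spike-in normalized counts in the untreated sera and 24336 and 121960 in the SBI-dFBS lots, sample 1 being given before sample 2 here and for the loci that follow. Ultracentrifuged serum had 43583 and 4694, ultrafiltered serum 3418 and 44.1, and StemPRO 0.0740. As for the sum, SBI-dFBS-2 was highest and the Gibco-based sample was the lower one in each of the 3 preparations.

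tRNA33-HisGTG, on another chromosome, followed tRNA7-HisGTG closely. FBS had 66518 and 615, SBI-dFBS 24111 and 121888, UC-dFBS 43507 and 4759, UF-dFBS 3379 and 43.8 and StemPRO 0.0555 spike-in normalized counts of it. The ratio of tRNA7-HisGTG to tRNA33-HisGTG stayed between 0.983 and 1.01 over the 8 FBS-based samples. In counts tRNA7-HisGTG was ahead in 6 of them and behind in FBS-2 and UC-dFBS-2.

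For tRNA21-HisGTG the spike-in normalized counts were 56199 and 474 (FBS), 21163 and 101832 (SBI-dFBS), 35948 and 3711 (UC-dFBS), 2936 and 40.9 (UF-dFBS) and 0.0833 (StemPRO). For tRNA1-HisGTG, one of the chromosome 15 loci, they were 56072 and 456, 21369 and 101060, 36036 and 3693, 2953 and 43.8 and 0.0370 in the same order. These loci changed places between the FBS-based samples, from the third to the sixth for tRNA21-HisGTG and from the second to the fifth for tRNA1-HisGTG. In UF-dFBS-2, where tRNA1-HisGTG was the second and tRNA21-HisGTG the sixth, they had 1053 and 983 counts.

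tRNA16-HisGTG, tRNA8-HisGTG, tRNA118-HisGTG and tRNA111-HisGTG changed place by 1 rank at most over the FBS-based samples. tRNA16-HisGTG, the fourth or the fifth, had spike-in normalized counts of 55008 and 461 (FBS), 21103 and 99466 (SBI-dFBS), 35404 and 3594 (UC-dFBS), 2906 and 43.5 (UF-dFBS) and 0.0740 (StemPRO). tRNA8-HisGTG, the fifth or the sixth, had 51668 and 413, 20135 and 92782, 32861 and 3260, 2743 and 42.3 and 0.0463 in this order of media. All of these followed the sum, with SBI-dFBS-2 highest and UF-dFBS-2 lowest of the FBS-based samples.

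Spike-in normalized counts of tRNA118-HisGTG were 49715 and 400.1 (FBS), 19237 and 89272 (SBI-dFBS), 31708 and 3204 (UC-dFBS), 2613 and 39.5 (UF-dFBS) and 0.0463 (StemPRO). tRNA111-HisGTG had 48532 and 386, 19315 and 86756, 30717 and 3012, 2617 and 40.4 and 0.0740. tRNA111-HisGTG was ahead of tRNA118-HisGTG in 3 of the 8 FBS-based samples, SBI-dFBS-1 and both of UF-dFBS.

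tRNA9-HisGTG was the lowest of the 9 in every FBS-based sample, from 38.3 spike-in normalized counts in UF-dFBS-2 to 84448 in SBI-dFBS-2. Both of its neighbours within 2617 bases were higher in all 8. tRNA106-HisGTG ranged from 0.666 spike-in normalized counts in UF-dFBS-2, where it had 16 counts, to 1271 in SBI-dFBS-2, and it had 1 count in StemPRO. It took 0.118% to 0.176% of tRNA-His counts in the 8 FBS-based samples. The highest of these shares was that of UF-dFBS-2, and its Wilson 95% confidence interval (0.109 to 0.287%) overlapped those of the other 7.

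**Figure D5:**
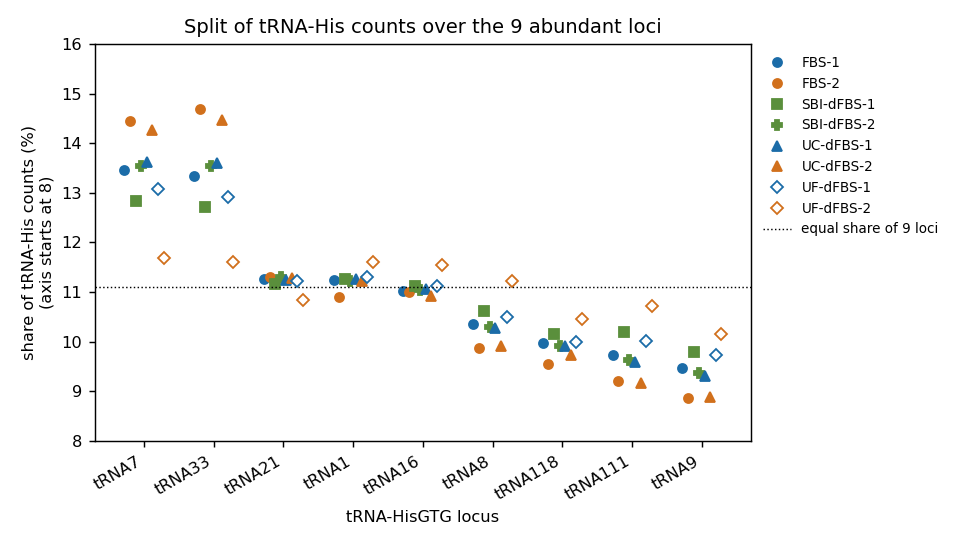
Share of the tRNA-His counts of a sample at each of the 9 abundant loci, in percent, on an axis that starts at 8. Points are the 8 FBS-based samples, and the dotted line is an equal share of 9 loci. tRNA7 and tRNA33 lie above the line in all samples, from 11.6% to 14.7%, and UF-dFBS-2 (open orange diamonds) lies closest to it at these loci.

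How evenly the counts spread over the loci differed between samples. tRNA7-HisGTG and tRNA33-HisGTG together held 29.1% of tRNA-His counts in FBS-2 (Wilson 95% confidence interval 28.6 to 29.6%) and 28.7% in UC-dFBS-2 (28.6 to 28.9%). Of the Sigma-based samples, FBS-1 had 26.8%, UC-dFBS-1 27.2% and UF-dFBS-1 26.0%, and the SBI-dFBS lots had 25.6% and 27.1%. The lowest share was that of UF-dFBS-2, with 23.3% (22.4 to 24.2%), where an even spread over 9 loci would give 22.2%. In both sera UF-dFBS was thus the preparation with the lowest share. Between the highest and the lowest of the 9 loci the ratio was 1.66 in FBS-2 and 1.15 in UF-dFBS-2. UF-dFBS-2 had 9066 tRNA-His counts, the fewest of the FBS-based samples, and the intervals cover counting error only. They take each read as belonging to 1 locus, whereas reads may fit several. The part of read placement in these shares was not tested.

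Over the 8 FBS-based samples, the log2 level of tRNA-His ran most closely with tRNA-ValTAC (Pearson's r = 0.985), tRNA-ThrCGT (0.972) and tRNA-IleAAT (0.964) among 29 other anticodon families with at least 10 counts in each of them. The median r of these families was 0.917 and the lowest 0.796, and all share the library and the spike-in factor of a sample, so that a high r is common here. tRNA-ValTAC was 108 times higher in FBS-1 than in FBS-2 and at 5.26 times FBS in UC-dFBS-2, near the values of tRNA-His. tRNA-ThrCGT and tRNA-IleAAT differed 13.3-fold and 11.0-fold between FBS-1 and FBS-2. Both were much rarer, at 152 and 111 spike-in normalized counts in FBS-1.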

How the data were processed

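Small RNA was isolated from the media with the exoRNeasy kit for EVs. It was sequenced with the QIAseq miRNA Library Kit, which adds unique molecular indices (UMIs). Per the methods and the submitters' processing notes, the authors trimmed reads with cutadapt 1.11, merged duplicates that shared insert and UMI, and used Bowtie2 2.2.2 to map first to miRBase and then to human GRCh37 with 1 mismatch allowed. The deposited counts are reads per miRNA or locus. How reads with several equal loci were placed is not given in the sources used here. The normalized table holds a signal that the authors made from counts and the slope of a line through the spike-ins, which comes to division by 1 factor per sample, from 3.78 in SBI-dFBS-2 to 108 in StemPRO. An error in this factor moves all loci of a sample together. The spike-ins were of miRNA size, and the paper considers the normalization likely better for miRNAs than for the mostly longer other small ncRNAs. This limit holds for levels of tRNA-His and for their comparison with miRNA.

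Tables were joined by name and position in python 3.11.15 (numpy 2.4.6, pandas 2.3.3, scipy 1.17.1). Fits used the quasi-likelihood test of edgeR 4.0.16 (R 4.3.3) with library sizes set to the spike-in factors, and p-values were adjusted over all loci tested by Benjamini-Hochberg, with a threshold of 0.05. The medium fit held 8 samples and loci with at least 10 counts in at least 2 of them. The supplier fit held 6 samples, with medium as a term and at least 10 counts in at least 3 samples. p-values measure the spread between these samples. In the supplier fit the samples of a supplier are preparations of a single serum. Its p-values therefore do not measure the spread between sera. Alternatives were TMM, DESeq2 1.42.0, no filter, identical loci counted once, each sample left out and the serum as replicate block. The fits were tested on simulated data of smaller spread than these, which checks the code and not how well the fits suit these data. Single samples were compared by a fold of 2, over loci with at least 10 counts in either sample. StemPRO was not tested.

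Same-numbered samples of FBS, UC-dFBS and UF-dFBS share a serum per the labels. Across 363 loci, the difference between sample 1 and sample 2 in FBS was correlated with that in UC-dFBS at 0.743 and with that in UF-dFBS at 0.615, and the latter 2 at 0.576. The difference between the SBI-dFBS lots, which have sera of their own, was correlated with these at -0.561 (FBS), -0.511 (UC-dFBS) and -0.461 (UF-dFBS). Correlations of similar size, with the other sign, thus arose without a shared serum, and the pairing rests on the labels.

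The loci, the comparison families (Gly, Glu, Val, Lys, Asp) and the source markers were chosen with earlier results of these data known. Full values are given for the 4 loci with the largest sums of counts and for loci whose order changed, and for the 3 anticodon families with the highest correlation. tRNA-GlyCCC, tRNA-GluTTC, tRNA-Ser, tRNA-SerAGA and tRNA-LeuAAG were named with their values known.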

Additional observations from a re-analysis of the deposited data

Results flagged for a closer look

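The ratio of UC-dFBS to FBS went in opposite directions in the 2 sera. For the tRNA-His total, the log2 ratio in the Gibco serum minus that in the Sigma serum was 3.61. For single loci it was 3.58 for tRNA7-HisGTG, 3.56 for tRNA33-HisGTG, 3.61 for tRNA21-HisGTG and 3.65 for tRNA1-HisGTG. Reads may fit several of these loci, which are not independent. Each serum gave 1 sample of each preparation, so that the difference was not tested.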

How the results depend on the processing

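Few samples and 2 unlike sera limit these values, and FBS-1 decides the mean of FBS. The number of tRNA-His loci called lower in the Gibco serum, 10, was 0 with TMM, 1 with no filter on low counts and between 0 and 10 with each sample left out. With the replicate block of the serum, 1 tRNA-His locus was called for UF-dFBS and 0 for UC-dFBS, and the called loci of the whole table went from 0 to 213 and from 0 to 8. The median log2 change in UC-dFBS, -0.52, was 0.96 with TMM, 0.88 with the size factors of DESeq2 and 1.39 with the replicate block. With each sample left out it lay between -2.96 and 5.42, that of SBI-dFBS between -0.40 and 7.05 and that of UF-dFBS between -9.31 and 1.71. With each sample left out, ratios of the total to FBS lay between 0.754 and 130.2 for SBI-dFBS, 0.131 and 42.1 for UC-dFBS and 0.00150 and 3.17 for UF-dFBS, the highest being without FBS-1. With geometric means they were 9.04 for SBI-dFBS and 2.24 for UC-dFBS, while for UF-dFBS the ratio was 0.594 on raw counts and 0.461 on shares of tRNA counts. The Gibco to Sigma ratio, 0.0232 as geometric mean over 3 media, was 0.286 on shares of tRNA counts. No block fit could be made for SBI-dFBS, whose lots have sera of their own. The share in StemPRO was 0.898% of all small ncRNA counts. The cause of these changes was not tested. Of 206 alternative values, 150 kept their direction and their side of the threshold or stayed within the spread. Some of these could not change, such as the median log2 change of SBI-dFBS without a sample of UC-dFBS or UF-dFBS. Others turned direction within a wide SD, such as the ratio of 0.754 for SBI-dFBS without SBI-dFBS-2. The tally is therefore no measure of how firm the results are. The fit of the 6 samples without a block was chosen after seeing the data and called 0 tRNA-His loci for UC-dFBS or UF-dFBS.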
